A study of Mus musculus with 8 samples.

Results

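The nuclear genes encoding subunits of the respiratory chain and ATP synthase were followed in bulk RNAseq of mouse skin epithelium after loss of MOF (Kat8) or of Kansl1. Members were chosen by gene symbol alone: names beginning Nduf with an a, b, c, s or v series, Sdha to Sdhd, Uqcr, Cox4 to Cox8 with a letter, Atp5, and the electron carriers Cyc1 and Cycs, leaving out Atp5s, Atp5sl and pseudogenes. The rule found 85 of the 23432 symbols listed in each library. Of these, 36 belong to complex I, 4 to complex II, 9 to complex III including Cyc1, 20 to complex IV and 15 to complex V, with Cycs as the mobile carrier. Ndufa4 and Ndufa4l2 bear complex I names but were counted with complex IV, where the Ndufa4 protein resides. The 85 genes lie on 19 chromosomes, with Ndufa1, Ndufb11 and Cox7b on the X chromosome. No listed symbol began with mt-, so subunits encoded by mitochondrial DNA were not analysed here.

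Complexes I and II pass electrons from NADH and succinate to ubiquinone. Complex III passes them on to cytochrome c, and complex IV passes them from cytochrome c to oxygen. Complexes I, III and IV pump protons across the inner mitochondrial membrane, and complex V (ATP synthase) uses the gradient to make ATP. The chain is assembled from subunits encoded by both genomes. In epidermis, mitochondrial respiration is known to support the differentiation of keratinocytes as they leave the basal layer.

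The series holds 8 libraries in 4 groups of 2. At E16.5, epithelial cells carrying the Krt14-H2BGFP transgene were sorted by FACS from dorsal skin of control embryos and of embryos with floxed MOF alleles and Krt14-Cre (MOFfl/fl/K14Cre, MOF cKO). At P0.5, whole epidermis was lifted off with dispase from control newborns and from newborns in which exon 3 of Kansl1 was floxed and removed by the same Cre (Kansl1fl/fl/K14Cre, Kansl1 cKO). MOF acetylates lysine 16 of histone H4, and Kansl1 is a scaffold of the NSL complex through which MOF also acts; each experiment asked what loss of its factor does to epithelial transcription. The study describes its controls as wild-type or heterozygous littermates, all animals were of a mixed C57Bl/6J and CD-1 background, and both sexes were used. Krt14-Cre acts in basal keratinocytes and their descendants, so immune, vascular, dermal or pigment cells present in a preparation kept both factors. In the same study an MOF cKO embryo profiled by single-cell RNAseq lost H4 lysine 16 acetylation in a mosaic pattern. The authors thought mosaic Cre expression the likely reason. Stage, isolation and sequencer changed together between the experiments. The study states that the RNAseq used 2 pairs of samples per experiment with littermate controls, but nothing ties a replicate number to a litter or a library to a separate animal, so p-values measure the spread between these libraries.

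Promoters are shown for 5 members whose transcripts carried the results below. They are those of Ndufab1, Ndufa4, Cycs and Uqcrfs1, which were higher in MOF cKO and had the lowest adjusted p-values or the largest folds. The other is that of Ndufa9, which had a log2 fold change below 0 in both experiments. Each is the 250 bases before the RefSeq start (GRCm38.p6), read 5′ to 3′ on the strand of the gene, which is the minus strand in all 5. They lie at chr7:122101849-122102098 (Ndufab1), chr6:11907451-11907700 (Ndufa4), chr6:50566570-50566819 (Cycs), chr13:30545317-30545566 (Uqcrfs1) and chr6:126849145-126849394 (Ndufa9). Capitals mark matches on either strand to 5 motifs searched in every window: CCGGAAG (the ETS core bound by GABP), GCATGCG (NRF1), AAGATGG (YY1), GTTGCCA (RFX) and CCAAT.
Ndufab1: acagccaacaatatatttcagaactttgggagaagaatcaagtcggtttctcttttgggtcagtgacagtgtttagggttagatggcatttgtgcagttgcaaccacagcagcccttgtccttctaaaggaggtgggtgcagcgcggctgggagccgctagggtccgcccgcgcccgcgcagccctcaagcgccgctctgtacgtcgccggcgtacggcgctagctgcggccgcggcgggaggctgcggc
Ndufa4: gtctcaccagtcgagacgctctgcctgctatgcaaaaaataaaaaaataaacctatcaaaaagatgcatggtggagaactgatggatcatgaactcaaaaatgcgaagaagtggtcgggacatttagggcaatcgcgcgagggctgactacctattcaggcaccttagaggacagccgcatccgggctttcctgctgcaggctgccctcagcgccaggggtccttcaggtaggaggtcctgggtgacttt
Cycs: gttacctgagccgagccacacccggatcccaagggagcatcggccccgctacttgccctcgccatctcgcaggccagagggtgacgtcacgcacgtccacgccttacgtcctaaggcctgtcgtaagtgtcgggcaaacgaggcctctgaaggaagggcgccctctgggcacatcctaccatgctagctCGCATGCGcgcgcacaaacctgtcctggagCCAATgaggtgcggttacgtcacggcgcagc
Uqcrfs1: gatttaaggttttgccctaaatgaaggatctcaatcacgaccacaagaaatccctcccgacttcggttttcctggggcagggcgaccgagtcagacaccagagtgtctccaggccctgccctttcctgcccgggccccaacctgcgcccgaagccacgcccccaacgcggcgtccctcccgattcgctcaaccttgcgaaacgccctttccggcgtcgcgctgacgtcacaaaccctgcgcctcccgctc
Ndufa9: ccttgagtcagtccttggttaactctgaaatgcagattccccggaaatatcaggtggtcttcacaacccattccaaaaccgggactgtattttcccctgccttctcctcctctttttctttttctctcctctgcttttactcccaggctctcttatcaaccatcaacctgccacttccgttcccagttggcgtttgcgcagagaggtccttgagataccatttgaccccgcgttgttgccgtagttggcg

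Only the Cycs window of the 5 held a match. It had overlapping NRF1 matches, 1 on each strand, at 60 and 61 bases before the start, and CCAAT at 31 bases before it. Of the 85 members, 68 had a window in the RefSeq table. CCGGAAG was found in 12 of them (17.6%, against 7.83% of the 27025 symbols with a window) and GCATGCG in 10 (14.7% against 3.43%). CCAAT was found in 30 (44.1% against 37.5%). AAGATGG was found in 1 (Atp5j, 1.47% against 5.18%) and GTTGCCA in 1 (Sdha, 1.47% against 4.19%). GABP and NRF1 are known activators of nuclear respiratory genes, and a match is a description of the letters, not a bound site. Among the 16 members with a window that rose in MOF cKO (next), 3 held the GABP core, 3 the NRF1 core and 7 CCAAT, and among the 52 others the counts were 9, 7 and 23.

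Counts assigned to genes ranged from 9108709 to 27561688 per library, and the members took 1.07% to 1.19% of them. Values below are CPM, counts relative to the library size after TMM scaling within each experiment, and are therefore relative to the other genes. In bulk samples, fewer cells of a type and less RNA per cell cannot be told apart. Kat8 was at 14.4 and 14.7 CPM in controls and 12.4 and 13.9 CPM in MOF cKO (log2 fold change -0.14, edgeR adjusted p = 0.554), and Kansl1 in the P0.5 libraries was at 40.7 and 48.2 CPM in controls and 31.4 and 30.6 CPM in Kansl1 cKO (-0.52, adjusted p = 0.242). Both are counts over whole genes, exons outside the deletion included, and do not check the genotypes. Xist was at 1518 and 10.2 CPM in E16.5 controls against 12.0 and 9.99 CPM in MOF cKO, and at 427 and 1.23 CPM against 371 and 423 CPM at P0.5, so sex was not matched between groups. Exons of 24 members, Ndufab1, Ndufa9, Ndufa3, Cox5a, Atp5l, Atp5j and Ndufa4l2 among them, overlap another gene's, on the opposite strand for 22, which leaves part of their counts uncertain where counting ignored strand. Of the cell type marker lists, the 8 keratinocyte markers had the highest sum in every library, at 36166 to 45290.2 CPM at E16.5 and 56324 to 87310.0 CPM at P0.5. Macrophage markers rose in MOF cKO (7 of 11 called, all 11 higher, sums of 20.7 and 46.0 CPM in controls against 106 and 135 CPM), and no macrophage marker was at 0 in every library. Skeletal muscle markers summed to 378 CPM in P0.5 control 1 against 7.59 to 11.2 CPM in the other P0.5 libraries.

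In MOF cKO epithelium, 18 subunits rose and none fell. Under TMM scaling, all tested transcripts of complexes IV and V, 6 of 9 of complex III and that of cytochrome c were higher, whereas those of complex I were split and those of complex II were mostly lower. A gene was called where the edgeR quasi-likelihood test gave a Benjamini-Hochberg adjusted p of 0.01 or lower over all genes tested and the fold change exceeded 1.5. Of 78 members tested, 18 (23.1%) were called higher, against 10.0% of all 13956 genes tested, and 0 were called lower, against 9.59%. At an unadjusted p under 0.05, 32 members were higher and 6 lower, against 23.7% and 25.1% of all genes, and DESeq2 called 19 higher and 0 lower, against 12.0% and 11.7%. Without a threshold, 53 members were higher and 25 lower, against 49.1% and 50.9% of all genes. This split depended on the scaling: it was 33 higher and 45 lower with library size alone (32.3% and 67.7% of all genes) and 39 higher and 39 lower with a correction for exon length and GC content (49.5% and 50.5%). The median log2 fold change was 0.20 over the members and -0.02 over all genes tested. Both MOF cKO libraries lay above both controls for 47 members (34.9% of all genes tested did) and below them for 16 (37.7% of all genes).

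**Figure D1:**
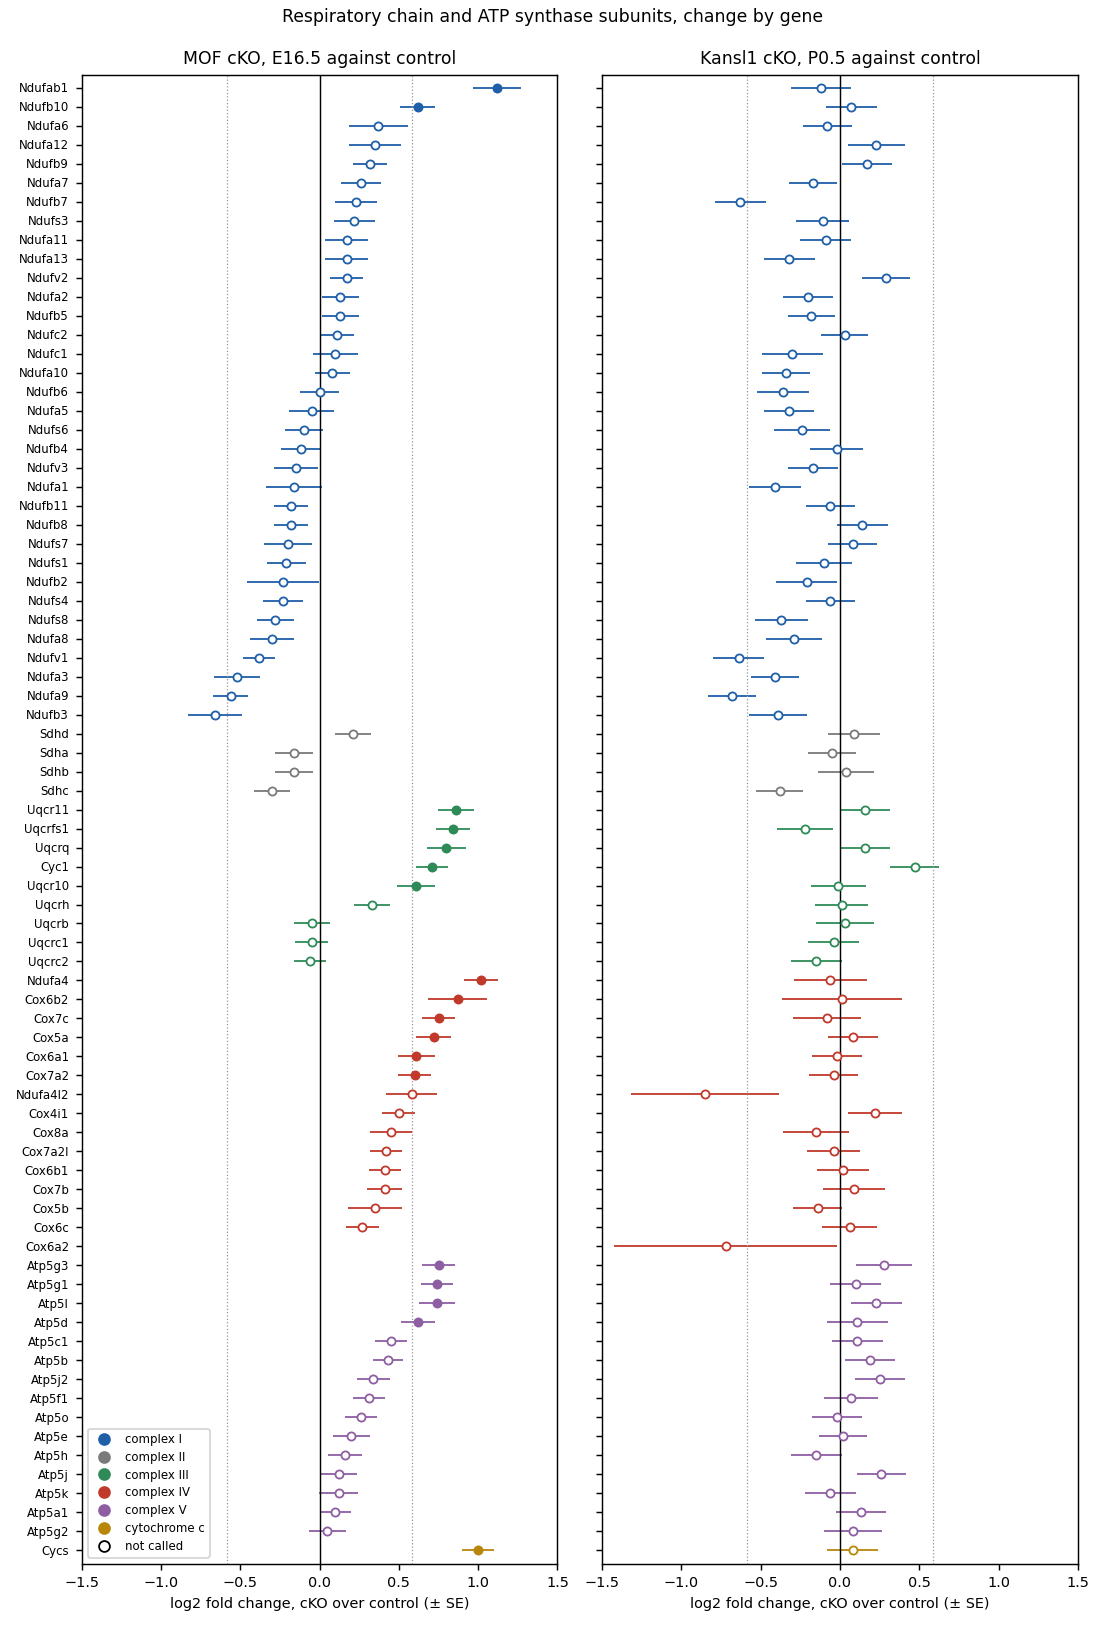
Log2 fold change of tested subunits (x axis, cKO over control, with its SE), 1 row per gene, coloured by complex, for MOF cKO (left) and Kansl1 cKO (right). Filled points are the 18 called genes, dotted lines mark 1.5-fold, and the filled points sit only in the MOF cKO panel, mostly among complexes III, IV and V.

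Complex I divided nearly evenly, although 30 of its members were lower with library size alone and 25 with a correction for length and GC content. Of its 35 tested members, 16 were higher and 19 lower, with a median of -0.05, and 2 rose (5.71%, below the 10.0% of all genes). Ndufab1, the mitochondrial acyl carrier protein and an accessory subunit (chr7:122085403-122101886, GRCm38), was at 20.1 and 17.7 CPM in controls and 44.2 and 38.0 CPM in MOF cKO. The groups lay far apart, with a fold of 2.17 (log2 fold change 1.12 ± 0.152 SE, adjusted p = 0.00171). Ndufb10, an accessory subunit of the membrane arm, was at 68.9 and 68.0 CPM in controls and 109 and 101 CPM in MOF cKO (log2 fold change 0.62 ± 0.110 SE, adjusted p = 0.0047). Both cKO libraries lay well above the controls, although its fold was only just past the threshold.

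Other complex I subunits were lower without passing both thresholds. Ndufa9, an accessory subunit where the matrix and membrane arms meet (chr6:126821721-126849136), was at 101 and 101 CPM in controls and 71.1 and 66.1 CPM in MOF cKO. The groups did not overlap, and the adjusted p passed while the fold did not (log2 fold change -0.56 ± 0.110 SE, adjusted p = 0.00714). Ndufb3, a small membrane-arm subunit, was at 28.6 and 31.7 CPM in controls and 16.9 and 21.3 CPM in MOF cKO (log2 fold change -0.66 ± 0.169 SE, adjusted p = 0.0195), and was called lower in 5 of 13 alternatives, the replicate block among them. Ndufa3 was at 42.9 and 40.1 CPM in controls and 31.5 and 26.3 CPM in MOF cKO (log2 fold change -0.52 ± 0.144 SE, adjusted p = 0.0255). Ndufv1, the core subunit that takes electrons from NADH, was at 136 and 139.6 CPM in controls and 108 and 104 CPM in MOF cKO (log2 fold change -0.38 ± 0.101 SE, adjusted p = 0.0225). In these 3 genes too, both MOF cKO libraries lay below both controls. The 7 nuclear core subunits, which form the electron-carrying arm, had a median of -0.20 with 5 lower, and the 28 tested accessory subunits had a median of 0.04 with 14 lower.

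Of the 4 complex II genes, which also serve the citric acid cycle, none passed the test. The flavoprotein gene Sdha was at 173 and 201 CPM in controls and 176 and 158 CPM in MOF cKO, with overlap (log2 fold change -0.16 ± 0.119 SE, adjusted p = 0.323). The iron-sulfur subunit gene Sdhb was at 67.9 and 70.7 CPM in controls and 58.3 and 65.8 CPM in MOF cKO (log2 fold change -0.16 ± 0.119 SE, adjusted p = 0.326). The membrane anchors went in opposite directions. Sdhc was at 102 and 103 CPM in controls and 87.9 and 79.4 CPM in MOF cKO (log2 fold change -0.30 ± 0.111 SE, adjusted p = 0.0704), lower in both cKO libraries, and Sdhd was at 97.3 and 94.9 CPM in controls and 117 and 105 CPM in MOF cKO (log2 fold change 0.21 ± 0.112 SE, adjusted p = 0.18), higher in both.

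In complex III 5 of 9 members rose (55.6%, against 10.0% of all genes), among them both nuclear subunits that carry electrons, while both large core subunits overlapped their controls. Cyc1, cytochrome c1, was at 154 and 164 CPM in controls and 257 and 262 CPM in MOF cKO. Each cKO library exceeded each control (log2 fold change 0.71 ± 0.100 SE, adjusted p = 0.00202). Uqcrfs1, the Rieske iron-sulfur protein (chr13:30540308-30545362), was at 73.9 and 74.4 CPM in controls and 127 and 138 CPM in MOF cKO, again without overlap (log2 fold change 0.84 ± 0.108 SE, adjusted p = 0.00143). Uqcrq, the ubiquinone-binding small subunit also called QPC, was at 66.2 and 60.4 CPM in controls and 118 and 103 CPM in MOF cKO (log2 fold change 0.80 ± 0.122 SE, adjusted p = 0.00259). Uqcr11 was at 91.8 and 80.0 CPM in controls and 155 and 157 CPM in MOF cKO (log2 fold change 0.86 ± 0.113 SE, adjusted p = 0.00155), and Uqcr10, a subunit beside the Rieske protein, was at 61.4 and 54.3 CPM in controls and 90.3 and 86.7 CPM in MOF cKO (log2 fold change 0.61 ± 0.119 SE, adjusted p = 0.00678). In each of these 5 both cKO libraries lay above the controls. With library size alone 0 of the 9 were called, and with the length and GC correction 3 were, since Uqcr10 came to 0.13 (edgeR adjusted p = 0.397) and Uqcr11 to 0.30 (0.0809). The small subunits Uqcrh (log2 fold change 0.33, adjusted p = 0.0515) and Uqcrb (log2 fold change -0.05, adjusted p = 0.774) were not called. The core subunit Uqcrc1 was at 465 and 420.0 CPM in controls and 415 and 440.1 CPM in MOF cKO (log2 fold change -0.05 ± 0.105 SE, adjusted p = 0.74), and its partner Uqcrc2 was at 178 and 172 CPM in controls and 172 and 165 CPM in MOF cKO (log2 fold change -0.06 ± 0.0992 SE, adjusted p = 0.681). Both overlapped between the groups.

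**Figure D2:**
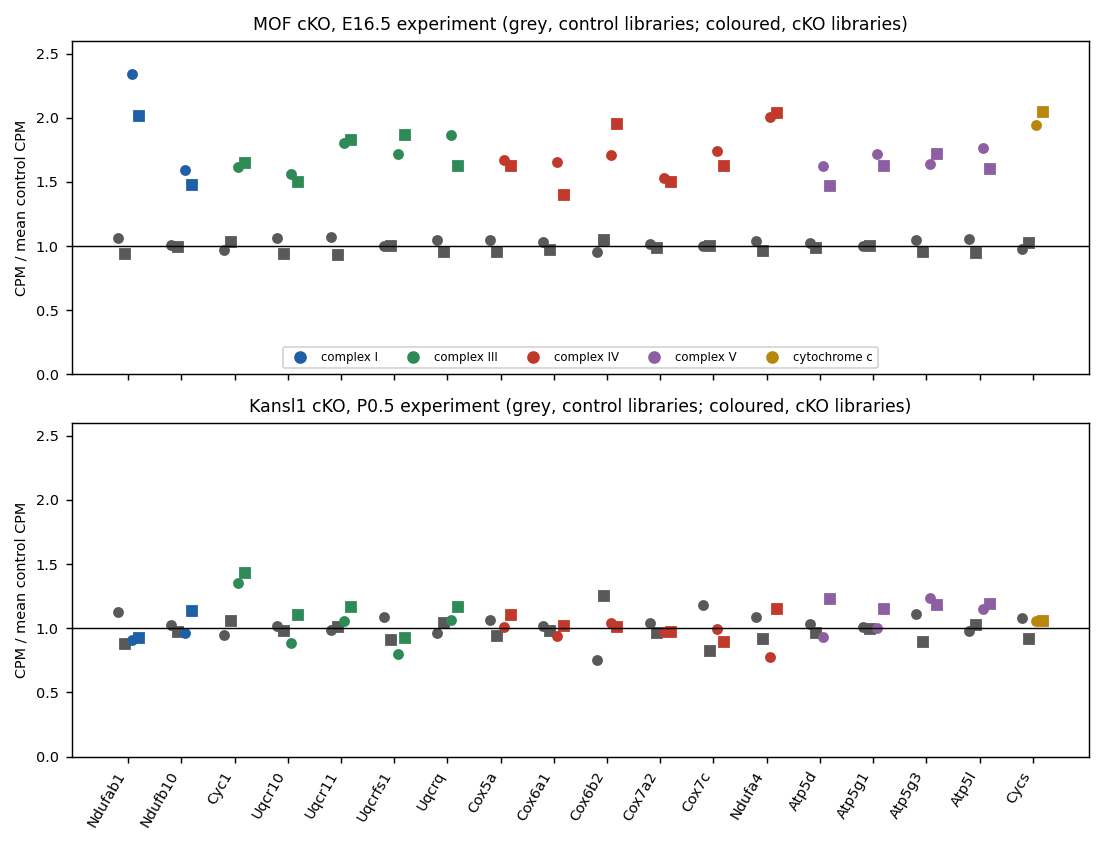
CPM of the 18 members called in MOF cKO, divided by the mean of the controls of the same experiment (y axis), with 1 point per library, grey for controls and coloured by complex for cKO (upper, E16.5 MOF cKO; lower, P0.5 Kansl1 cKO). All coloured points lie above the grey ones in the upper panel, while in the lower panel most of them mix with the controls. The genes were chosen by their values in the upper panel.

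Cycs, the soluble carrier between complexes III and IV (chr6:50562563-50566538), was at 92.0 and 96.0 CPM in controls and 183 and 192 CPM in MOF cKO. Both cKO libraries stood well above both controls, with the lowest adjusted p of any member (log2 fold change 1.0 ± 0.102 SE, adjusted p = 0.000711).

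In complex IV all 14 tested members were higher with no overlap between groups (34.9% of all genes were), and 6 rose (42.9%, against 10.0% of all genes). With library size as the only scaling 13 were higher, and with a correction for length and GC content 12 were. In each of these settings only 1 was called higher (5.51% and 10.9% of all genes were). Ndufa4 (chr6:11900292-11907497) was at 68.2 and 63.2 CPM in controls and 132 and 134 CPM in MOF cKO. The 2 cKO libraries were close to each other and 2.02-fold above the controls (log2 fold change 1.02 ± 0.108 SE, adjusted p = 0.000775). Among subunits with no isoform, Cox5a, which contacts the catalytic core from the matrix side, was at 78.9 and 72.2 CPM in controls and 126 and 123 CPM in MOF cKO (log2 fold change 0.72 ± 0.109 SE, adjusted p = 0.00262), and Cox7c was at 129.5 and 129 CPM in controls and 225 and 209 CPM in MOF cKO (log2 fold change 0.75 ± 0.101 SE, adjusted p = 0.00172). Cox7a2, the widely expressed form of its subunit, was at 86.8 and 84.1 CPM in controls and 130.5 and 128 CPM in MOF cKO (log2 fold change 0.60 ± 0.103 SE, adjusted p = 0.00425), and Cox6a1 was at 122 and 114 CPM in controls and 195 and 165 CPM in MOF cKO (log2 fold change 0.61 ± 0.118 SE, adjusted p = 0.00675). Cox6b2, known as the testis form, was far less abundant at 9.39 and 10.3 CPM in controls and 16.8 and 19.2 CPM in MOF cKO (log2 fold change 0.87 ± 0.186 SE, adjusted p = 0.00973). Neither group overlapped the other in any of them. Cox4i1, a regulatory subunit, was at 415 and 396 CPM in controls and 599 and 544 CPM in MOF cKO, past the adjusted p but not the fold (log2 fold change 0.50 ± 0.104 SE, adjusted p = 0.00912). Ndufa4l2, the paralogue of Ndufa4 known for its induction by hypoxia, was at 74.1 and 64.8 CPM in controls and 119.8 and 88.7 CPM in MOF cKO (log2 fold change 0.58 ± 0.163 SE, adjusted p = 0.0265) and was called by DESeq2 but not by edgeR. Cox6c was the least shifted, with a log2 fold change of 0.27.

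All 15 members of complex V were higher, 12 of them without overlap (34.9% of all genes were), and 4 rose (26.7%, against 10.0% of all genes). With upper-quartile scaling 14 were higher, with the length and GC correction 10 and with library size alone 8. In that order, 3, 1 and 0 were called higher (8.69%, 10.9% and 5.51% of all genes were). Subunit c, which forms the rotating ring in the membrane, is made from 3 genes, and 2 of them rose. Atp5g1 was at 111 and 111 CPM in controls and 191 and 180.3 CPM in MOF cKO (log2 fold change 0.74 ± 0.100 SE, adjusted p = 0.00168), and Atp5g3 was at 309 and 282 CPM in controls and 484 and 507 CPM in MOF cKO (log2 fold change 0.75 ± 0.104 SE, adjusted p = 0.00191). Atp5g2 was at 238 and 220.3 CPM in controls and 255 and 221 CPM in MOF cKO, with overlapping groups (log2 fold change 0.05 ± 0.115 SE, adjusted p = 0.742). Atp5g2 was the least shifted gene of the complex, and the difference between the paralogues was not tested. Atp5d, the delta subunit of the central stalk, was at 220.1 and 211 CPM in controls and 349 and 315 CPM in MOF cKO (log2 fold change 0.62 ± 0.106 SE, adjusted p = 0.00404), and Atp5l, subunit g of the membrane part, was at 123 and 111 CPM in controls and 206 and 187 CPM in MOF cKO (log2 fold change 0.74 ± 0.111 SE, adjusted p = 0.00242). Of the catalytic head, the beta subunit gene Atp5b was at 1445 and 1357 CPM in controls and 1889 and 1897 CPM in MOF cKO (log2 fold change 0.43 ± 0.0961 SE, adjusted p = 0.0112) and the alpha subunit gene Atp5a1 was at 1209 and 1146 CPM in controls and 1259 and 1258 CPM in MOF cKO (log2 fold change 0.10 ± 0.0954 SE, adjusted p = 0.456). Neither was called, although the beta gene was 1.35-fold above its controls.

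Sums over each complex also placed complexes III, IV and V above complexes I and II. Complex IV summed to 1744 and 1641 CPM in controls against 2547 and 2325 CPM in MOF cKO, a ratio of 1.44. Complex V summed to 4839 and 4575 against 6072 and 5933 CPM (1.28), and complex III to 1289 and 1218 against 1578 and 1567 CPM (1.25). Complex I summed to 2221 and 2135 against 2241 and 2098 CPM (0.996), and complex II to 441 and 470 against 440 and 408 CPM (0.932). Under TMM scaling the groups were well apart for complexes III, IV and V, were apart by only 1 CPM for complex II, and overlapped for complex I. Before that scaling, all members together took 1.18% and 1.12% of gene counts in controls and 1.16% and 1.14% in MOF cKO. The ratios above therefore depend on the scaling. These sums are descriptions and were not tested.

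**Figure D3:**
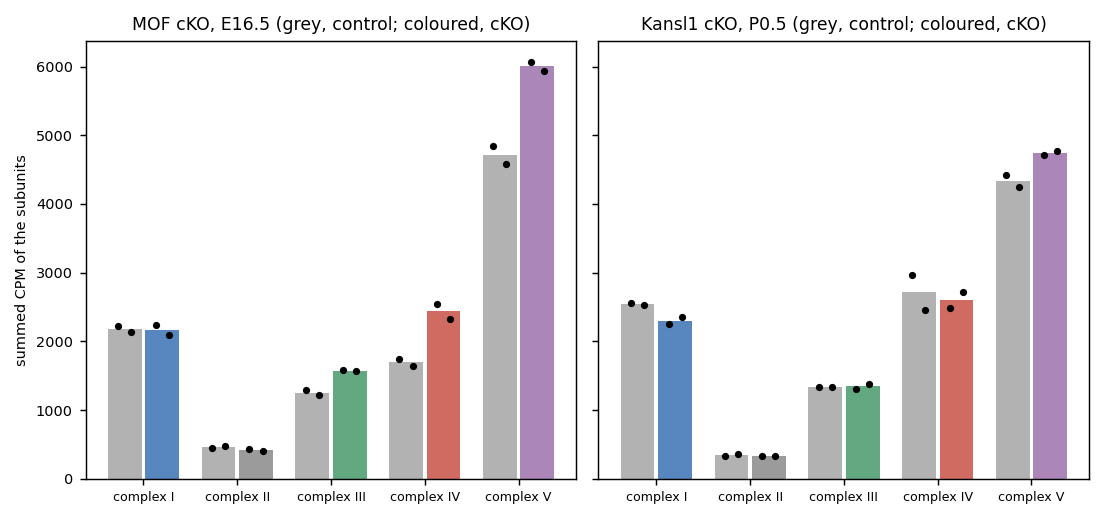
Summed CPM, under TMM scaling, of the subunits of each complex (y axis) in the MOF and Kansl1 experiments. Bars are means of 2 libraries (grey, control; coloured, cKO) and points are the libraries; the MOF cKO bars stand above the control bars for complexes III, IV and V, and the complex I bar is below its control in the Kansl1 experiment.

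How many members rose depended on the scaling and on a joint correction for exon length and GC content. With library size alone, 3 were called higher (Cycs, Ndufa4 and Ndufab1) and 6 lower (Ndufa3, Ndufa8, Ndufa9, Ndufb3, Ndufv1 and Sdhc), against 5.51% and 19.7% of all genes, while the median of all genes moved from -0.02 to -0.32. At an unadjusted p under 0.05 there were then 18 higher and 25 lower (13.5% and 40.9% of all genes). With a correction for exon length and GC content, 7 were called higher (those 3, Atp5g1, Cyc1, Uqcrfs1 and Uqcrq) and 2 lower (Ndufa3 and Ndufb3), against 1521 and 1531 of all 13956 genes. At an unadjusted p under 0.05 there were 21 higher and 19 lower (25.5% and 25.9% of all genes), and the median of the members became 0.00. The members tested had a median exon length of 864 bases against 3088 bases over all genes tested. Their median GC content was 50.9% against 50.4%. Length and GC content were corrected together, and their separate parts were not tested. The median of complex I was below that of complex IV under each of these scalings: -0.36 against 0.23 with library size alone, and -0.23 against 0.30 with the length and GC correction. Markers of cell type and state moved with genotype in the same libraries. Besides the macrophage sums, 3 of 8 keratinocyte markers rose and 1 fell: the suprabasal keratin genes Krt1 and Krt10 and the cornified envelope gene Ivl rose, with log2 fold changes of 1.67, 1.12 and 4.26 (edgeR adjusted p = 0.000394, 0.00105 and 0.000681), and the basal keratin gene Krt15 fell, with -1.26 (adjusted p = 0.000745). Krt14 (log2 fold change 0.20, edgeR adjusted p = 0.183), Krt5 (-0.04, 0.836), Trp63 (-0.57, 0.0087) and Lor (0.51, 0.131) were not called. The part of these markers in the results was not tested.

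**Figure D4:**
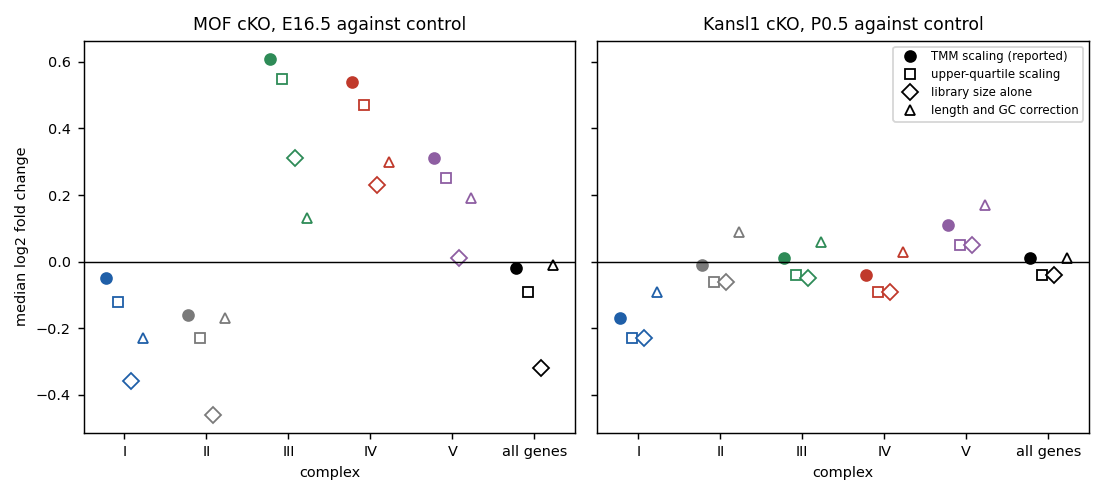
Median log2 fold change by complex and over all genes tested (y axis) under TMM scaling (filled) and under upper-quartile scaling, library size alone and a length and GC correction (open symbols). In MOF cKO, complexes III and IV lie above complex I under each of the 4 settings, while the level of all of them shifts with the setting.

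In Kansl1 cKO epidermis no member was called, and complex I transcripts lay mostly below the controls. Of 79 members tested, 0 were called in either direction, as were 0% of all 13031 genes tested in edgeR, whose adjusted p-values reached no lower than 0.11. With unadjusted p-values under 0.05, 1 member was higher and 6 were lower, against 7.43% and 8.26% of all genes. DESeq2 called 0 members, with 0.282% of all genes higher and 0.443% lower. The median log2 fold change was -0.04 over the members and 0.01 over all genes. Both cKO libraries lay above both controls for 15 members and below for 24, against 26.0% and 22.7% of all genes tested, and 40 overlapped.

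Of 35 complex I members, 28 (80.0%) had a log2 fold change below 0, against 48.6% of all genes tested, and the median was -0.17. For 19 of them both cKO libraries lay below both controls, as they did for 22.7% of all genes tested. Ndufa9 was at 132 and 123 CPM in controls and 77.9 and 81.3 CPM in Kansl1 cKO, both cKO libraries far below both controls at a fold of 0.625 (log2 fold change -0.68 ± 0.152 SE, adjusted p = 0.197). Ndufb7, an accessory subunit on the intermembrane side, was at 37.9 and 39.2 CPM in controls and 25.9 and 23.8 CPM in Kansl1 cKO (log2 fold change -0.63 ± 0.161 SE, adjusted p = 0.204). Ndufv1 was at 88.7 and 106 CPM in controls and 63.0 and 62.3 CPM in Kansl1 cKO (log2 fold change -0.64 ± 0.163 SE, adjusted p = 0.206). The cKO values of all 3 sat below the lower control, yet none passed after adjustment. Ndufa3 was at 57.9 and 57.4 CPM in controls and 42.1 and 44.9 CPM in Kansl1 cKO (log2 fold change -0.41, unadjusted p = 0.0307 in edgeR). Ndufa1, an X-linked membrane subunit, was at 42.3 and 42.5 CPM in controls and 29.5 and 34.5 CPM in Kansl1 cKO (-0.41, unadjusted p = 0.0446 in edgeR). Ndufa9, Ndufa3 and Ndufv1 were thus lower, without being called, in both experiments. The core subunit Ndufv2 went the other way, at 117 and 121 CPM in controls and 141 and 149 CPM in Kansl1 cKO (log2 fold change 0.29 ± 0.153 SE, adjusted p = 0.415), the highest value in the complex. Leaving out P0.5 control 1 gave 23 of the 35 lower and 12 higher, and so did the length and GC correction.

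The remaining complexes were close to 0. In complex II, with a median of -0.01, Sdhc was at 93.3 and 92.3 CPM in controls and 73.0 and 69.2 CPM in Kansl1 cKO (log2 fold change -0.38 ± 0.148 SE, adjusted p = 0.294). Complex III had a median of 0.01, and Cyc1 was the member with an unadjusted p under 0.05 on the high side. It was at 80.6 and 89.9 CPM in controls and 115 and 122 CPM in Kansl1 cKO, both cKO libraries above both controls (log2 fold change 0.47 ± 0.156 SE, adjusted p = 0.248). In complex IV the median was -0.04 and 13 of 15 members overlapped. Ndufa4l2 spread most, at 455 and 159 CPM in controls and 134 and 206 CPM in Kansl1 cKO (log2 fold change -0.85 ± 0.467 SE, adjusted p = 0.428). Its highest value was in P0.5 control 1, the library with the skeletal muscle markers, and their part in it was not tested; without that library its log2 fold change was 0.10. In complex V, 12 of 15 members were higher, against 51.4% of all genes tested, with a median of 0.11 and a highest value for Atp5g3, at 161 and 129 CPM in controls and 179 and 171 CPM in Kansl1 cKO (log2 fold change 0.28 ± 0.176 SE, adjusted p = 0.493). Summed over complexes under TMM scaling, complex I was at 2564 and 2536 CPM in controls against 2248 and 2349 CPM in Kansl1 cKO (ratio 0.901), and complex V at 4418 and 4249 against 4708 and 4772 CPM (1.09), both without overlap. The whole set summed to 11700 and 11006 against 11152 and 11626 CPM. In the same libraries melanocyte markers summed to 429 and 472 CPM in controls against 911 and 1026 CPM in Kansl1 cKO (5 of 5 higher), macrophage markers to 179 and 202 against 267 and 291 CPM (10 of 11 higher) and dermal fibroblast markers to 2472 and 1764 against 1806 and 1529 CPM (6 of 8 lower). No marker of these 3 lists was at 0 in every library or was called in edgeR, and their part in the results was not tested.

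The effects of both deletions were compared by an interaction term over all 8 libraries. No member of 80 tested passed both thresholds in edgeR, against 1.76% of 14565 genes above and 1.17% below. At an unadjusted p under 0.05, 19 members had a higher effect in MOF cKO and 0 a lower one, against 14.8% and 16.4% of all genes. With library size alone these were 8 and 1 (9.94% and 21.9% of all genes), and without Kansl1 cKO 1 they were 12 and 0. DESeq2 called 0 lower (3.46% of all genes) and 7 higher (6.61%): Cox7a2, Cycs, Ndufa4, Ndufab1, Ndufb7, Uqcr11 and Uqcrfs1. In edgeR, 8 members reached an adjusted p of 0.05 or lower, all with the higher effect in MOF cKO (7.05% of all genes were on this side, and 6.76% on the other). The lowest was that of Uqcrfs1, whose log2 fold change was 0.84 in MOF cKO and -0.22 in Kansl1 cKO, a difference of 1.03 ± 0.198 (SE, adjusted p = 0.0133). Cycs differed by 0.88 (adjusted p = 0.0158 in edgeR) and Ndufab1 by 1.21 (adjusted p = 0.0164). Ndufb7 differed by 0.83, with 0.23 in MOF cKO and -0.63 in Kansl1 cKO (adjusted p = 0.0286 in edgeR). Over the 80 members, 60 differences were above 0 (46.6% of all genes) and 20 below (53.4%), and with library size alone 43 were above (35.6%) and 37 below (64.4%). By complex, the median difference was 0.61 for complex IV, with 16 of 16 above 0, and 0.11 for complex I. It was -0.07 over all genes tested. The 16 include Cox4i2 (1 to 13 counts per E16.5 library) and Cox6a2 (0 to 7 counts), which were near the floor and not tested in MOF cKO alone. Stage, isolation and sequencer cannot be told apart from the deleted gene in this comparison.

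Levels between genes were compared per length, as CPM scaled over all 8 libraries and divided by exon length in kilobases (RPKM). Subunits of complex I sat lowest among the proton pumps, with a median of 60.5 RPKM in E16.5 controls and 74.2 RPKM in P0.5 controls. Complex III had medians of 98.6 and 174 RPKM, complex IV of 89.6 and 213 RPKM and complex V of 198 and 223 RPKM. These medians are over all members of a complex. For complex IV they include Cox4i2, Cox6a2, Cox7a1, Cox7b2, Cox8b and Cox8c, which were at or near 0 and lower its medians. The order of complexes III and IV therefore depends on counting these isoforms. Ndufs5, Cox7b2 and Cox8c were listed at 0 in all 8 libraries; a count of 0 allows up to 0.0978 to 0.344 CPM by library, for counting error only. Ndufs5 encodes a complex I subunit found throughout tissues, and alignments that were not unique, 8.57% to 15.4% of the counts of each library, were not assigned to genes. Many subunit genes have processed pseudogenes, and reads that match such a copy equally well would not be assigned either, so the levels of those members are uncertain.

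Where the Cox genes of complex IV have tissue isoforms, the widely expressed form made up nearly all of the signal in the pairs given here. The paralogues Ndufa4 and Ndufa4l2 were closer to each other in level and are given below. Cox4i1 was at 489 ± 13.4 RPKM in E16.5 controls, 689 ± 47.0 in MOF cKO, 465 ± 49.0 in P0.5 controls and 555 ± 19.5 in Kansl1 cKO (SD, n = 2), whereas Cox4i2, the lung and hypoxia form, was between 0.0637 and 1.35 RPKM. Cox6a1 ranged from 185 to 316 RPKM over the 8 libraries and its muscle form Cox6a2 from 0 to 3.06 RPKM. Cox7a2 ranged from 118 to 258 RPKM and its muscle form Cox7a1 from 0 to 0.885 RPKM. Cox8a was between 188 and 314 RPKM, and the muscle form Cox8b was seen as 7 counts, 6 of them in P0.5 control 1. The highest values of Cox6a2 and Cox8b were both in P0.5 control 1, the library in which skeletal muscle markers were high. Cox7a1 went the other way, at 0 RPKM in that library and highest, at 0.885 RPKM, in P0.5 control 2. The part of muscle tissue in these values was not tested. Among these minor Cox forms, Cox6b2 was the exception. It was at 13.8 ± 0.959 RPKM in E16.5 controls and 25.3 ± 2.34 in MOF cKO, and at 5.25 ± 1.88 and 5.50 ± 0.147 in the P0.5 groups (SD, n = 2). Cox6b1 was at 218 to 434 RPKM in group means.

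**Figure D5:**
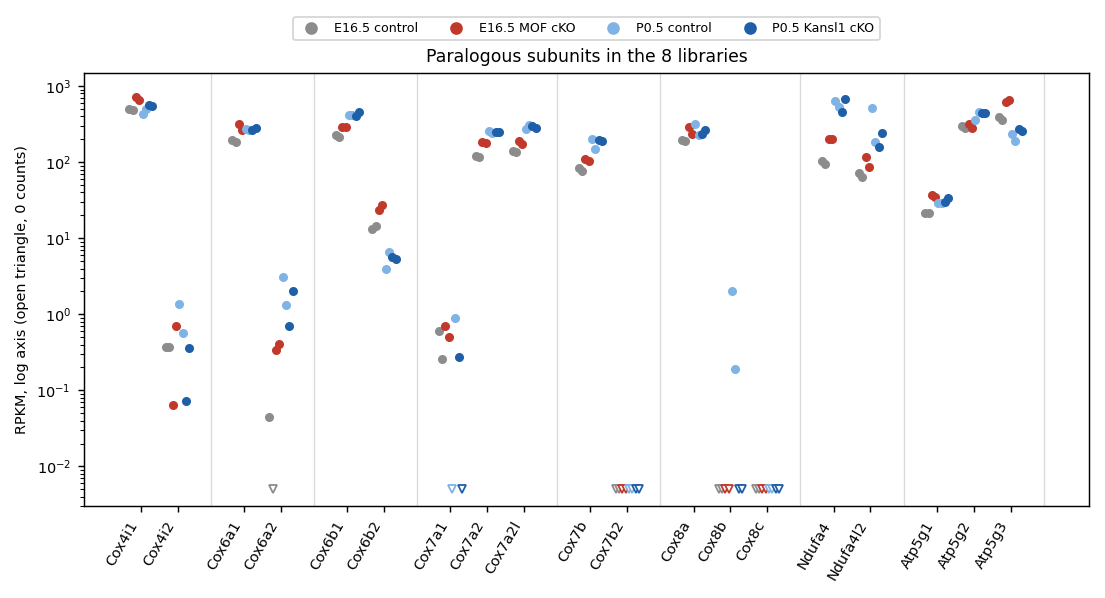
RPKM of paralogous subunits (y axis, log scale) with 1 point per library, coloured by group; open triangles mark 0 counts. Cox4i1, Cox6a1, Cox6b1, Cox7a2, Cox7b and Cox8a lie at 76.3 RPKM or higher in all 8 libraries, and the muscle forms Cox6a2, Cox7a1 and Cox8b lie at 3.06 RPKM or lower.

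Among these genes Ndufa4 had the largest difference in RPKM between the control means of the experiments, at 99.2 ± 4.84 RPKM in E16.5 controls and 201 ± 2.46 in MOF cKO against 583 ± 69.2 in P0.5 controls and 573 ± 156 in Kansl1 cKO (SD, n = 2). It was ranked 1 among the 85 members in P0.5 controls and 30 in E16.5 controls. Ndufa4l2 followed the same order of experiments, with 68.5 ± 6.12 and 103 ± 21.8 RPKM at E16.5 and 351 ± 238 and 199 ± 58.6 RPKM at P0.5 (SD, n = 2). Among the genes for subunit c, Atp5g3 led in both E16.5 groups, at 376 ± 22.5 RPKM in controls and 631 ± 20.8 in MOF cKO. Atp5g2 led in both P0.5 groups at 408 ± 69.3 and 441 ± 3.15 RPKM (SD, n = 2). Atp5g1 depended on the length used: over the union of its exons (4778 bases) it was at 21.4 RPKM in E16.5 controls, and over its shortest curated transcript (596 bases) at 172 RPKM. These levels were set side by side without a test.

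Assembly factors were mostly lower than their controls in both experiments. Of 44 tested assembly factors, which insert cofactors or build the complexes, 28 (63.6%) were lower in MOF cKO, against 50.9% of all genes tested, with a median of -0.28. Of the 44, 5 fell (11.4%, close to the 9.59% of all genes) and 1 rose (2.27% against 10.0%). With library size alone 37 were lower and 13 were called lower (29.5%, against 19.7% of all genes). Cox15, needed to make haem a for complex IV, was at 31.6 and 28.8 CPM in controls and 10.7 and 11.8 CPM in MOF cKO (log2 fold change -1.42 ± 0.160 SE, adjusted p = 0.000912). Nubpl, which delivers iron-sulfur clusters to complex I, was at 8.90 and 8.48 CPM in controls and 2.51 and 1.10 CPM in MOF cKO (log2 fold change -2.28 ± 0.428 SE, adjusted p = 0.00605), and Ndufaf7, a mitochondrial methyltransferase, was at 10.5 and 14.8 CPM in controls and 4.07 and 3.13 CPM in MOF cKO (log2 fold change -1.81 ± 0.295 SE, adjusted p = 0.0034). Coa3 and Ecsit also fell, by 0.95 and 0.88 on the log2 scale. Sco2, a copper chaperone of complex IV, was at 1.73 and 1.77 CPM in controls and 7.73 and 9.23 CPM in MOF cKO (log2 fold change 2.28 ± 0.324 SE, adjusted p = 0.00204). In every one of these the groups were apart. In Kansl1 cKO, 37 of the 44 (84.1%) were lower, against 48.6% of all genes tested, with a median of -0.33. None was called in edgeR or had an unadjusted p under 0.05 on the high side (7.43% of all genes did), and 10 had one on the low side (8.26% of all genes). Cox17, a copper chaperone, was at 20.1 and 18.8 CPM in controls and 11.2 and 10.5 CPM in Kansl1 cKO (log2 fold change -0.83 ± 0.189 SE, adjusted p = 0.197).

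A list of 14 genes held regulators of nuclear respiratory genes and also Tfam, Tfb1m, Tfb2m and Polrmt, which act on mitochondrial DNA. Of the 14, 1 rose and 1 fell in MOF cKO (7.14% each, below the 10.0% and 9.59% of all genes tested). Esrra, the estrogen-related receptor alpha, rose, at 35.8 and 41.6 CPM in controls and 76.3 and 91.4 CPM in MOF cKO (log2 fold change 1.12 ± 0.142 SE, adjusted p = 0.00136). Polrmt, the mitochondrial RNA polymerase, fell, at 62.5 and 67.3 CPM in controls and 40.3 and 38.4 CPM in MOF cKO (log2 fold change -0.72 ± 0.117 SE, adjusted p = 0.00335). The median of the 14 was 0.09, and -0.21 with library size alone. In Kansl1 cKO 13 were tested with a median of 0.12, and 0 were called in edgeR. At an unadjusted p under 0.05 there were 2 higher, Esrra among them, and 2 lower, Polrmt among them (7.43% and 8.26% of all genes). All 6 transcripts of genes for proteins tied to ATP synthase or to its substrates were higher in MOF cKO and 2 rose, where 10.0% of all genes did. With library size alone 5 were higher and 0 were called, and with the length and GC correction 4 were higher and only Slc25a3 was called. Usmg5, a small component of the enzyme, was at 68.2 and 64.5 CPM in controls and 121 and 115 CPM in MOF cKO (log2 fold change 0.83 ± 0.109 SE, adjusted p = 0.00153), and Slc25a3, the phosphate carrier, was at 460.0 and 418 CPM in controls and 773 and 659 CPM in MOF cKO (log2 fold change 0.71 ± 0.119 SE, adjusted p = 0.00386). All 6 were also higher in Kansl1 cKO, with a median of 0.21 and 0 called in edgeR (1 at an unadjusted p under 0.05).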

How the data were processed

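Poly(A) RNA libraries made with the NEBNext Ultra Directional kit were sequenced from 4 groups of 2 (HiSeq for E16.5, NovaSeq for P0.5). The authors aligned reads to mm10 (the study's methods name HISAT2, the submitters' processing notes name TopHat2 and HTSeq) and deposited whole-number read counts per gene symbol for each library, with no normalization. The strand setting of the counting is not given in the sources used here. The 5 rows that name no gene held 21.1% to 26.0% of the counts and were left out. Gene counts of 9108709 to 27561688 per library set the precision, and limits from a count of 0 use 3 counts and cover counting error only.

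Each experiment was filtered with edgeR's filterByExpr, scaled by TMM and tested with the edgeR 4.0.16 quasi-likelihood test (R 4.3.3, limma 3.58.1), with Benjamini-Hochberg adjustment over all genes tested; calls used the thresholds of the study, 0.01 for the adjusted p and 1.5 for the fold. Alternatives were DESeq2 1.42.0, RLE, upper-quartile and library-size scaling, every gene with a count, glmTreat, correction for exon length and GC content, a replicate block, 1 fit over all 8 libraries, other thresholds and leaving out each library. The procedure was tested on simulated data with known changes. Lengths and positions came from GENCODE M21 (GRCm38), which matched 98.4% of symbols and all 85 members. Tables were made with Python 3.11.15, pandas 2.3.3 and numpy 2.4.6, and promoter windows of 250 bases were searched on both strands. Replicate numbers are shared between groups. The study's methods speak of pairs of samples and of littermate controls, but neither they nor the labels say that a number marks a litter, so the block was an alternative only.

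The members, the lists of assembly factors, regulators, ATP synthase partners and cell type markers, and the settings were chosen with earlier results of these data known. Genes named were the called members, the highest and lowest of each complex in each comparison, subunits named by the study, paralogous isoforms, Cyc1 and Cycs, and for related lists the 3 largest rises and falls among called genes; members near the thresholds and Cox17 were added after their values were seen. The values of 1 subunit are not reported here, although it stays in the counts and medians.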

Additional observations from a re-analysis of the deposited data

How the results depend on the processing

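In MOF cKO, 18 members were called higher and 0 lower. The count lower became 1 with upper-quartile scaling (Ndufa9), 1 with every gene (Ndufb3), 1 with the replicate block (Ndufb3), 1 at an adjusted p of 0.05 and 1 without the fold threshold. Library size alone gave 3 higher and 6 lower, glmTreat 2 higher, the length and GC correction 7 and 2, and that correction with the replicate block 7 and 4. Leaving out 1 library gave 12 to 18 higher and 0 lower. The 12 were the same genes without E16.5 control 2 and without MOF cKO 1. Cycs, Ndufa4 and Ndufab1 were called under each scaling, correction and left-out library, and glmTreat called Cycs and Ndufa4 only. Medians over all MOF members were -0.10 with library size alone and 0.00 with the length and GC correction. For complex I the median was -0.03 (RLE), -0.12 (upper quartile), -0.36 (library size), -0.23 (length and GC) and -0.02 to -0.01 with 1 library left out. For complex II it was -0.23 (upper quartile), -0.46 (library size) and -0.23 to -0.09 with 1 left out. For complex III it was 0.55, 0.31, 0.13 (upper quartile, library size, length and GC) and 0.53 to 0.66. For complex IV it was 0.23 (library size), 0.30 (length and GC) and 0.42 to 0.60, and for complex V 0.25, 0.01 and 0.19 in the order used for complex III.

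In Kansl1 cKO the count lower was 0 to 1 with 1 library left out (Ndufa4l2 without Kansl1 cKO 2, edgeR adjusted p = 0.00782, with 1.45% of all genes then called lower). Medians over all members were -0.09 (upper quartile), -0.09 (library size), 0.03 (length and GC) and -0.08 to 0.00 with 1 left out. Complex I moved to -0.09 (length and GC) and -0.25 to -0.15, complex II to 0.09 (length and GC), complex III to -0.05 (library size), 0.06 (length and GC) and -0.02 to 0.09, complex IV to -0.13 to 0.08, and complex V to 0.05 (upper quartile), 0.05 (library size), 0.17 (length and GC) and 0.05 to 0.15. For the difference between the effects, 7 members were called higher with every gene, 7 with DESeq2 and 0 to 1 with 1 left out (Ndufa4 without Kansl1 cKO 2). The causes were not tested. Same-numbered libraries deviated with a correlation of 0.25 (MOF) and -0.26 (Kansl1). A crossed replicate block for Kansl1, added after seeing the data, called 0 members, and the replicate block called 0 in Kansl1 and in the difference. With 2 libraries a group, a lone library left in a group is assumed to vary like the others.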

Other observations

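Marker sums not given above were as follows, in CPM, with controls before cKO libraries. At E16.5, dermal fibroblast markers summed to 1778 and 2278 against 2214 and 2666 (0 of 8 called), endothelium markers to 6.16 and 7.22 against 10.8 and 22.3 (1 of 5 called higher), melanocyte markers to 13.5 and 45.6 against 18.4 and 71.5 (0 of 5 called) and skeletal muscle markers to 6.95 and 5.78 against 8.28 and 27.7 (1 of 6 tested called higher, Actn2). At P0.5, endothelium markers summed to 6.65 and 4.01 against 3.44 and 2.92, with 0 of 3 tested called. Adipocyte and erythroid markers summed to at most 8.47 CPM in any library, and 3 of the 4 erythroid markers in the files were listed at 0 in each. These calls are those of the edgeR test.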
